A study of Mus musculus with 16 samples.

Results

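Haematopoietic stem cells from mice that received rapamycin alone were compared with those from mice that received the vehicle alone. The comparison used 8 of the 16 RNA-seq libraries of the study, 4 per group, chosen by their treatment labels. All expressed genes were described, which were the 15308 of 50686 gene identifiers with enough counts to be tested.

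Both groups were C57BL/6J mice that carried no labelled genetic change, and their age was not used here. The vehicle was 20% DMSO and 40% PEG 400 in PBS, given as an intraperitoneal injection of 100 µL once per 48 h over 85 days. Rapamycin was given at 6.4 mg/kg in this same vehicle and schedule. The other 8 libraries came from mice given the CDK4/6 inhibitor palbociclib at 30.4 mg/kg, alone or together with 6.4 mg/kg rapamycin, again in that vehicle. From each sample 10000 marrow cells in the G0/G1 phase, depleted of lineage-positive cells and stained for CD150, CD48, Sca-1 and CD117, were sorted, and their RNA was amplified with a low-input kit. Whether the replicates are different mice is not stated in the labels. If they are not, the p-values reflect the spread of these samples only, which may be technical.

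Rapamycin binds the small protein FKBP12, encoded by Fkbp1a, and the pair blocks the kinase mTOR within mTOR complex 1. This complex couples amino acids and growth factors to protein synthesis, ribosome production, lipid and nucleotide synthesis and mitochondrial function, and it restrains autophagy and lysosome production. Much of its action is on proteins and on translation, which mRNA levels do not report. Blood stem cells are mostly quiescent and keep mTOR activity low, and the series' title places these treatments in a study of cell size and stem cell potential during ageing.

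The 8 libraries held 10146176 to 15328830 estimated counts and detected 16570 to 20418 genes. Neither measure separated the groups (exact permutation tests over the 8 libraries, 2-sided, adjusted p = 0.514 for both, 2 tests). Levels are given as CPM, the count of a gene relative to the library total, scaled by TMM factors. The lowest median correlations with the other libraries were those of vehicle 3, rapamycin 3 and vehicle 4 (0.866, 0.871 and 0.88). The genes of the positive sort markers, Kit and Slamf1, were measured in every library, whereas neutrophil genes took 1.36% to 6.87% of vehicle counts and 0.908% to 6.51% of rapamycin counts. Immunoglobulin genes took 0.329% to 7.43% of vehicle counts and 0.00749% to 0.199% of rapamycin counts. In bulk RNA, fewer cells of a type and less RNA per cell cannot be told apart.

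Rapamycin changed 1 gene past the adjusted threshold. Bhlhe40 fell, and no gene rose (edgeR quasi-likelihood test, Benjamini-Hochberg adjusted p under 0.05 over 15308 genes). The share of genes called was 0.00653%. An unadjusted p under 0.05 was found for 1171 genes (7.65%), of which 507 had a higher and 664 a lower fitted level with rapamycin (3.31% and 4.34%). All 4 rapamycin libraries lay above all 4 vehicle libraries for 241 genes (1.57%) and below them for 229 genes (1.5%). Over all tested genes the median log2 fold change was -0.01, with 7499 genes higher (49.0%) and 7806 lower (51.0%).

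The number of calls depended on the tool. DESeq2 called 26 genes higher (0.17%) and 60 lower (0.392%). Of the 60, 20 were immunoglobulin gene segments, and of all 86 genes called, 51 had groups whose libraries did not overlap. limma-voom called 1 gene, lower, and limma on log2(TPM + 1) called none.

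The precision of the comparison followed the level of the gene. The 95% interval of the fold change lay within 2-fold of no difference for 6594 genes (43.1%). That share was 88.8% of the 2173 genes above 100 CPM, 62.1% of the 7255 genes between 10 and 100 CPM and 3.55% of the 4563 genes between 1 and 10 CPM. None of the 1317 genes below 1 CPM had such an interval. The median standard error of the log2 fold change was 0.19 above 100 CPM and 1.39 below 1 CPM. For most well-expressed genes a change above 2-fold would thus have lain outside the measured interval, whereas for scarce transcripts it would not. The interval lay wholly beyond 2-fold for 119 genes, 42 of them at an average log2 CPM of 1 or more.

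**Figure D1:**
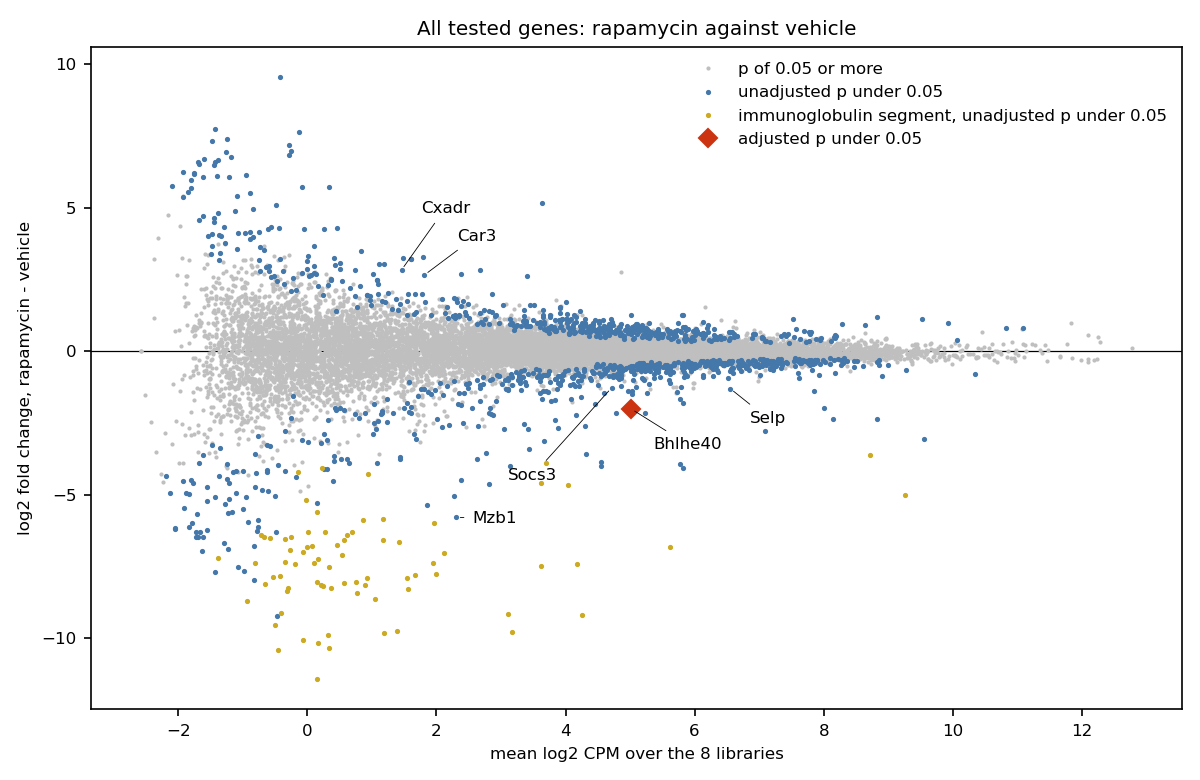
Log2 fold change (rapamycin minus vehicle) of every tested gene against its mean log2 CPM over the 8 libraries. Points widen toward low levels, the 1 called gene, Bhlhe40, lies at -2.01, and immunoglobulin segments form the lower left cloud.

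Bhlhe40 encodes a basic helix-loop-helix repressor that binds E-box DNA and is known as a part of the circadian clock and of the response to hypoxia and cytokines. The gene lies on the plus strand of chromosome 6 at 108660629 to 108666925 (GRCm38). Its level was 91.1, 67.3, 65.7 and 43.0 CPM in the 4 vehicle libraries. With rapamycin it was 17.9, 14.2, 11.5 and 22.5 CPM. Every rapamycin library lay below every vehicle library, with a gap between the highest rapamycin and the lowest vehicle value. Bhlhe40 fell by 2.01 on the log2 scale (SE 0.25, 95% interval -2.54 to -1.48, adjusted p = 0.00721). Without rapamycin replicate 2 the adjusted p was 0.0729, and with the 8 compared libraries alone in the fit it was 0.322, at log2 fold changes of -1.95 and -2.01.

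The genes described next did not pass the adjusted threshold. Together with Bhlhe40, which did pass, they are the 12 protein-coding genes of smallest p in each direction that met 2 conditions. Their 4 rapamycin and 4 vehicle libraries did not overlap, and their log2 CPM averaged 1 or more. Their small p, their separation and their direction were thus part of the choice. Of the 24 genes, DESeq2 called 20, Bhlhe40 among them. It used the same counts by which the genes were chosen, so this number is not independent evidence.

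Socs3, which encodes a feedback inhibitor of JAK-STAT cytokine signalling, had the next smallest p among the lower genes. Vehicle libraries held 53.7, 31.4, 36.2 and 43.0 CPM and rapamycin libraries 18.9, 15.5, 18.3 and 14.9 CPM. The rapamycin values were close to each other and lay well under the lowest vehicle value. The log2 fold change was -1.28 ± 0.24 (SE; adjusted p = 0.217). DESeq2 gave an adjusted p of 0.00042. Selp encodes P-selectin, an adhesion receptor of platelets and endothelium whose mRNA is known to be high in aged blood stem cells. It was at 184, 201, 92.4 and 135 CPM with vehicle and at 65.9, 36.3, 75.2 and 70.6 CPM with rapamycin. Its log2 fold change was -1.30 ± 0.25 (SE; adjusted p = 0.222). Vehicle replicate 3 was the vehicle library nearest to the rapamycin range.

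Of the other lower genes, 6 had the narrower spreads. Ubac2, an endoplasmic reticulum membrane protein with a ubiquitin-binding domain, was at 117 to 136 CPM with vehicle and 63.3 to 86.9 CPM with rapamycin. Galnt11, an enzyme that starts O-linked glycosylation, was at 36.4 to 42.8 CPM with vehicle and 19.4 to 23.8 CPM with rapamycin. Both had narrow ranges within each group, with log2 fold changes of -0.76 and -0.94. Pip4p1, a lysosomal phosphoinositide phosphatase, was at 90.9 to 168 CPM against 67.7 to 79.8 CPM. Tbc1d10a, a GTPase-activating protein for Rab proteins, was at 28.0 to 36.0 CPM against 13.5 to 21.8 CPM, and the solute carrier Slc35f5 at 36.8 to 54.0 CPM against 23.4 to 27.7 CPM. Exosc4, a subunit of the RNA exosome that degrades RNA, was at 51.7 to 67.6 CPM against 36.3 to 43.1 CPM.

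The other lower genes had wider spreads. Rapgef4, a cyclic AMP-activated exchange factor for the GTPase Rap, was at 11.8, 6.67, 4.34 and 14.2 CPM with vehicle. With rapamycin it was at 2.22, 1.56, 0.239 and 0.948 CPM. Ppp3cc, a catalytic subunit of the phosphatase calcineurin, reached 86.5 CPM in vehicle replicate 4 and 10.3 to 21.1 CPM in the other vehicle libraries, against 3.496 to 6.32 CPM with rapamycin. Mzb1, an endoplasmic reticulum protein of B and plasma cells, reached 239 CPM in vehicle replicate 4 and was at 3.44 to 19.5 CPM in the other vehicle libraries. Rapamycin libraries held 0.0671 to 2.16 CPM of Mzb1. Vehicle replicate 4 also held the highest immunoglobulin share, and the part of other cells in the values of Ppp3cc and Mzb1 was not tested.

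Among the higher genes, Car3 had the smallest p. It encodes a carbonic anhydrase known to be abundant in fat and muscle. It was at 1.12, 1.73, 1.10 and 1.32 CPM with vehicle and at 6.65, 8.93, 10.1 and 7.82 CPM with rapamycin. The lowest rapamycin value was over 3 times the highest vehicle value, yet both groups were at low levels, and the log2 fold change was 2.66 ± 0.43 (SE; adjusted p = 0.103). Without palbociclib replicate 1 in the fit the adjusted p was 0.0452. Ldah, a hydrolase of lipid droplets, was at 36.3, 33.7, 29.1 and 32.2 CPM with vehicle and 49.1, 54.3, 65.0 and 57.0 CPM with rapamycin. Its log2 fold change was 0.78 ± 0.16 (SE; adjusted p = 0.295).

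The other higher genes have varied roles. Dhx15, an RNA helicase of splicing, was at 92.2 to 108 CPM with vehicle and 134 to 178 CPM with rapamycin. Cstf2t, which takes part in 3′ end cleavage of mRNA, was at 25.6 to 34.7 CPM against 40.7 to 58.3 CPM. Eif3m, a subunit of translation initiation factor eIF3, was at 89.3 to 124 CPM against 140 to 177 CPM. Usp9x, a deubiquitinase, was at 10.95 to 19.3 CPM against 23.9 to 33.7 CPM. All 4 had log2 fold changes between 0.50 and 0.92. Parg, which removes poly(ADP-ribose), was at 6.55 to 14.0 CPM with vehicle and 18.7 to 41.3 CPM with rapamycin. Sept7, a septin of the cytoskeleton, was at 44.0 to 57.6 CPM against 70.9 to 101 CPM, and the trans-Golgi syntaxin Stx16 at 16.2 to 20.2 CPM against 28.0 to 37.0 CPM.

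Armc9 and Ift80, both known for their work in the primary cilium, were at 5.70 to 12.6 and 3.05 to 9.47 CPM with vehicle. With rapamycin they were at 18.9 to 26.3 and 15.9 to 20.3 CPM. Cxadr, a junctional adhesion protein, was at 0.551 to 1.81 CPM with vehicle and at 5.10, 2.01, 15.96 and 8.77 CPM with rapamycin. The rapamycin libraries thus differed by several fold among themselves for Cxadr, and its standard error was 0.71 on the log2 scale.

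**Figure D2:**
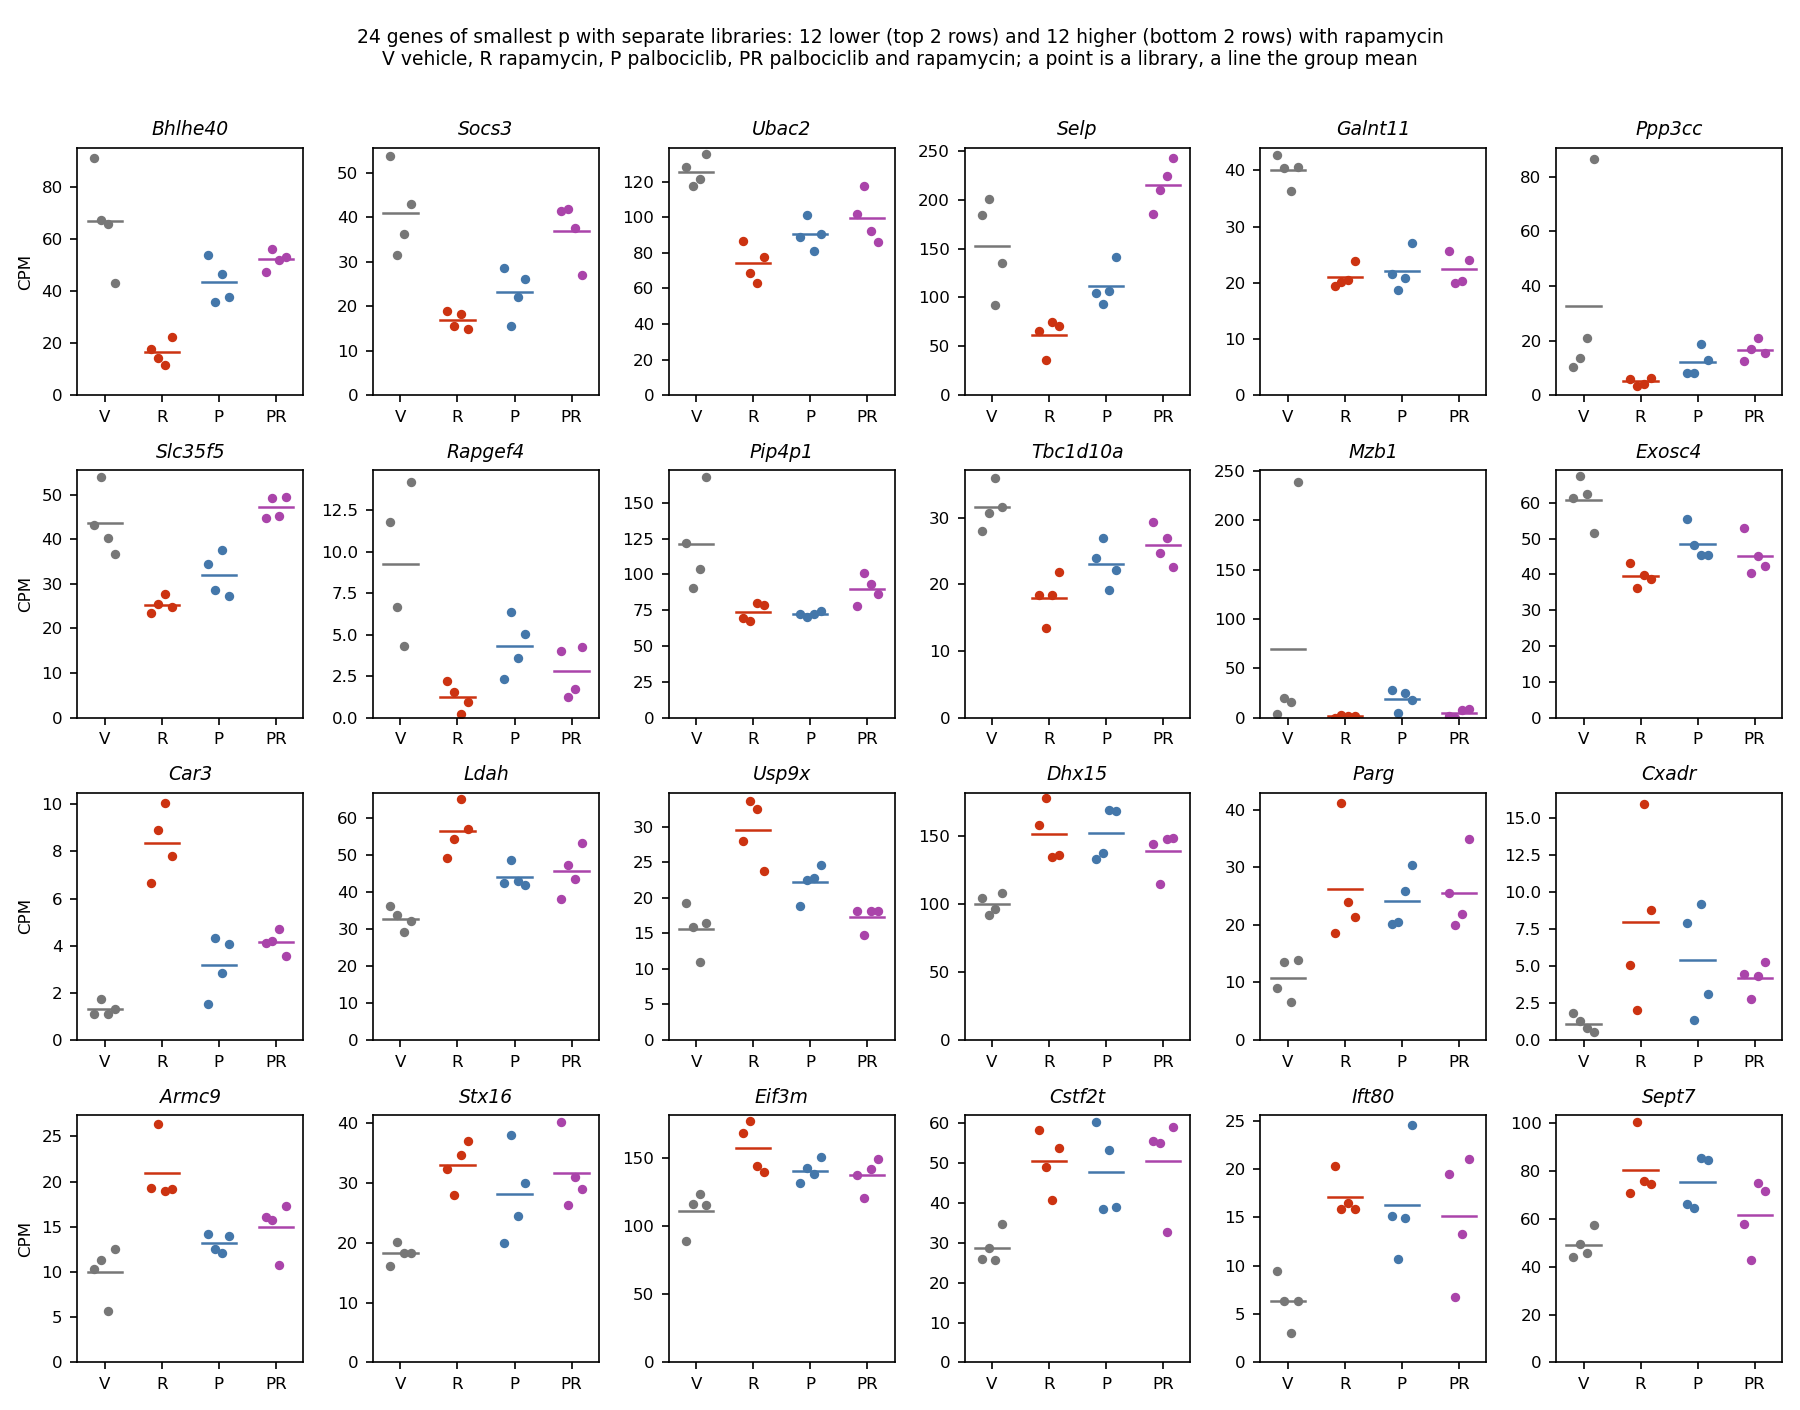
CPM of the 24 genes in each library (points) with group means (lines), on linear axes from 0, for vehicle (V), rapamycin (R), palbociclib (P) and palbociclib with rapamycin (PR). V and R do not overlap in any panel because the genes were chosen so, whereas P and PR overlap in all panels but those of Selp, Slc35f5, Pip4p1 and Usp9x.

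Promoters are shown for Socs3 and for Nupr1, a stress-response gene described below. Socs3 holds a motif of STAT factors and Nupr1 one of ATF4, and gene lists of both kinds are counted here. No list of E-box or Bhlhe40 targets was counted, and a link of Bhlhe40 to Nupr1 was not tested. They are the 250 bases before the RefSeq start (GRCm38.p6), read 5′ to 3′ on the gene's strand. Capitals mark TTCNNNGAA, the spacing bound by STAT factors, in Socs3 and CACGTG, the E-box that Bhlhe40 and other helix-loop-helix factors bind, in Nupr1. The Nupr1 window also held TTCNNNGAA and TGATGNAA, the composite motif of ATF4 and C/EBP, which are left in lower case.
Socs3, chr11:117969367-117969616, minus strand: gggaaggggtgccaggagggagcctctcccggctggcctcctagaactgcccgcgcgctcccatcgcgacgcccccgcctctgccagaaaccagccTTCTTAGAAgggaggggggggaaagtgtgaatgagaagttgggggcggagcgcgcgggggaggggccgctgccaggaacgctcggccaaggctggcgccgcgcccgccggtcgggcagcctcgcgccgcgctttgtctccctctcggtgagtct
Nupr1, chr7:126625471-126625720, minus strand: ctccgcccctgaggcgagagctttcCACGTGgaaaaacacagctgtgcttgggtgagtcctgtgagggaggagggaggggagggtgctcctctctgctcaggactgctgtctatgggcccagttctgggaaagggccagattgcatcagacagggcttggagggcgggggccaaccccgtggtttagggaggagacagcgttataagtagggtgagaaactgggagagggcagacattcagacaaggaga
Both strands were searched. TTCNNNGAA was present in 7.02%, CACGTG in 6.02%, TGATGNAA in 3.45%, the AP-1 motif TGANTCA in 6.75% and the CRE motif TGACGTCA in 1.55% of the 32851 promoters of the table. Of the 12 lower genes 8 had a promoter in the table, and of these only Socs3 held TTCNNNGAA, only Pip4p1 held CACGTG, only Selp held TGANTCA and only Galnt11 held TGACGTCA and TGATGNAA. Of the 12 higher genes 7 had one, of which Armc9 held TTCNNNGAA and CACGTG, Ldah held TGACGTCA, and none held TGANTCA or TGATGNAA. A match is a description of the letters and not of binding.

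The genes of the drug's own target showed no called change. Mtor was at 19.9, 24.9, 9.66 and 25.3 CPM with vehicle and 25.8, 26.3, 11.1 and 25.6 CPM with rapamycin, so the groups overlapped over nearly their whole ranges. Its log2 fold change was 0.16 (95% interval -0.57 to 0.89), and it was -0.07 without vehicle replicate 3. Fkbp1a was at 371 to 438 CPM with vehicle and 251 to 443 CPM with rapamycin. Rptor, the scaffold of complex 1, had a log2 fold change of -0.34. Rictor, the scaffold of complex 2, had 0.07, and Mlst8, a subunit of both, 0.11. Without vehicle replicate 3, Rictor was at -0.18 and Mlst8 at -0.04. Deptor, an inhibitory subunit of both complexes, was at 20.0, 27.0, 19.5 and 21.4 CPM with vehicle and 31.4, 41.0, 29.7 and 32.6 CPM with rapamycin. Its libraries did not overlap, and the log2 fold change was 0.62 ± 0.21 (SE; edgeR adjusted p = 0.513).

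Of 45 tested genes of the mTOR complexes and their upstream regulators, none was called, 27 were lower and 18 higher, with a median log2 fold change of -0.05. Besides Deptor, an unadjusted p under 0.05 was found for Lamtor5 and Lamtor1, parts of the Ragulator complex that holds mTORC1 on the lysosome, at -0.35 and -0.33. The 22 effectors of translation had a median of 0.11, with 14 higher and none called, and the median was -0.01 without vehicle replicate 3. Rps6kb1, which encodes the S6 kinase, was at 14.7, 19.5, 36.0 and 26.7 CPM with vehicle and 26.9, 38.5, 38.7 and 19.3 CPM with rapamycin. Eif4ebp1, which encodes the translation repressor 4E-BP1, was at 129 to 214 CPM against 103 to 187 CPM. Myc, a growth regulator, was at 48.6 to 82.9 CPM against 56.4 to 79.5 CPM. These 3 genes overlapped between the groups.

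**Figure D3:**
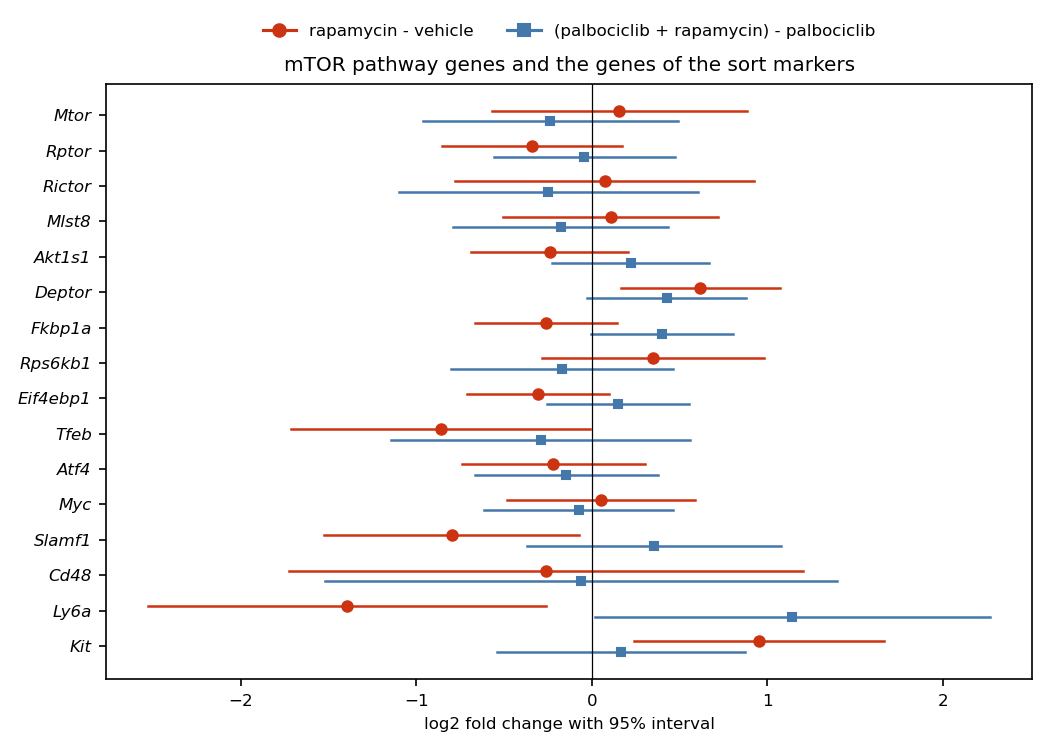
Log2 fold changes with 95% intervals for 12 mTOR pathway genes and 4 sort marker genes, for rapamycin against vehicle (circles) and for the combination against palbociclib (squares). The rapamycin intervals of Deptor, Tfeb, Slamf1, Ly6a and Kit lie off 0, and none of the 16 genes passed the adjusted threshold.

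Genes of growth and metabolism were read against the background of all tested genes, of which 51.0% were lower. This background varied with level. Between 10 and 100 CPM 49.8% of genes were higher, and above 100 CPM only 37.0% were. For lists of highly expressed genes a majority of lower members is therefore closer to the background than the 51.0% would show. The amino acid and ATF4 response covers the transcription factor Atf4 and its targets in amino acid synthesis, transport and tRNA charging. Of its 34 tested genes 31 were lower, with a median log2 fold change of -0.30, 5 with an unadjusted p under 0.05 and none called. The median ran from -0.39 without vehicle replicate 3 to -0.21 without vehicle replicate 4, and reached -0.16 in the other settings. The mean log2 CPM of the list was 5.68, 5.46, 5.23 and 5.96 with vehicle and 5.29, 5.21, 5.18 and 5.38 with rapamycin. Vehicle replicate 3 lay within the rapamycin range and the other vehicle libraries above it. Nupr1, a small chromatin protein induced by stress, was at 109, 73.8, 90.6 and 78.1 CPM with vehicle and 42.8, 20.8, 45.6 and 37.5 CPM with rapamycin. Its libraries did not overlap (log2 fold change -1.26 ± 0.32, SE; adjusted p = 0.399), and DESeq2 gave an adjusted p of 0.0237. Slc3a2, the heavy chain of amino acid transporters, was at 366 to 445 CPM against 239 to 360 CPM. Aars, an alanyl-tRNA synthetase, had a log2 fold change of -0.50 and Chac1, a glutathione-degrading enzyme, -1.28. Atf4 itself was at 321, 474, 155 and 421 CPM with vehicle and 281, 330, 229 and 338 CPM with rapamycin.

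Of 31 tested glycolysis and hypoxia genes 25 were lower, with a median log2 fold change of -0.20, which was -0.05 without vehicle replicate 2. Bhlhe40 is on this list and was its called gene. Hk2, the hexokinase that starts glycolysis, was at 99.5, 85.3, 80.3 and 44.8 CPM with vehicle and 45.9, 41.7, 49.1 and 42.5 CPM with rapamycin (log2 fold change -0.79; adjusted p = 0.429). Vehicle replicate 4 lay within the rapamycin range. Of 24 sterol synthesis genes 20 were lower (median -0.25, and -0.15 without rapamycin replicate 3). Ebp, a sterol isomerase, was at 68.1 to 90.0 CPM against 36.6 to 67.2 CPM. Of 17 fatty acid synthesis genes 10 were lower. Scd1, a desaturase, was at 304 CPM in vehicle replicate 4 and at 9.01 to 10.3 CPM in the other vehicle libraries, against 0.319 to 9.96 CPM with rapamycin.

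Ribosome genes were evenly split. Of 82 tested cytosolic ribosomal protein genes 41 were lower and 41 higher, with a median log2 fold change of 0.00 and no call. The median ran from -0.18 without vehicle replicate 3 to 0.13 without vehicle replicate 4. These genes have many near-identical pseudogene copies, so counts of single members are uncertain. Ribosome biogenesis genes were likewise split, 19 of 39 lower. Pes1 and Bop1, partners in large subunit assembly, had log2 fold changes of -0.41 each. Heatr1 and Polr1a, which serve transcription of ribosomal RNA, had 0.88 and 0.68. None of the 4 was called.

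Lysosome and proton pump genes were more often lower, 31 of 45 with a median of -0.15 and none called. The median was -0.26 without vehicle replicate 1. With single libraries left out it ran from -0.27 without rapamycin replicate 3 to -0.12 without vehicle replicate 3. In the other settings it reached -0.03. The list averaged 6.80 log2 CPM with vehicle and 6.69 with rapamycin, and above 100 CPM only 37.0% of all tested genes were higher. Ctsz, a cathepsin, was at 212 to 502 CPM with vehicle and 165 to 224 CPM with rapamycin. Tfeb, the transcription factor that drives lysosome genes, was at 15.9, 16.2, 15.3 and 39.1 CPM with vehicle and 11.1, 13.8, 4.87 and 17.8 CPM with rapamycin. Of 34 autophagy genes 13 were lower and 21 higher (median 0.08, and 0.01 without vehicle replicate 3). Nbr1, an autophagy receptor, was at 27.4 to 53.6 CPM against 50.3 to 85.8 CPM. Of 32 proteasome subunits 23 were lower (median -0.13, and -0.06 without vehicle replicate 3), and 5 lower and 2 higher members had libraries that did not overlap. Over all tested genes 1.5% were lower and 1.57% higher without overlap.

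Of 64 nuclear genes of oxidative phosphorylation 51 were lower, with a median log2 fold change of -0.14 and members between -0.50 and 0.31. The median was -0.05 without vehicle replicate 3 and 0.01 in the fit on log2(TPM + 1). Uqcrc1, a core subunit of complex III, was at 536, 626, 618 and 449 CPM with vehicle and 382, 356, 477 and 363 CPM with rapamycin. Of 78 mitochondrial ribosomal protein genes 60 were lower (median -0.14, and -0.04 without vehicle replicate 3). Mrpl4 was at 168 to 195 CPM against 122 to 150 CPM and Mrpl17 at 123 to 174 CPM against 91.6 to 123 CPM. Of the 13 protein genes of the mitochondrial genome 12 were higher, 9 with an unadjusted p under 0.05 and none called, with a median of 0.96. The gene of cytochrome b, mt-Cytb, was at 296, 376, 232 and 409 CPM with vehicle and 635, 1394, 287 and 652 CPM with rapamycin. mt-Co1, a subunit of complex IV, was at 1424, 2347, 1328 and 1769 CPM against 2484, 4666, 2048 and 2773 CPM. Rapamycin replicate 2 was the highest library for both genes, and the median over the 13 genes was 0.53 without it. All mitochondrially encoded genes took 0.356% to 1.06% of vehicle counts and 0.554% to 2.05% of rapamycin counts. This share also moves with RNA quality and with cell lysis, whose part was not tested.

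Genes of the cell cycle did not pass the test. Of 38 G2 and mitosis genes 33 were higher, with a median log2 fold change of 0.35, 4 with an unadjusted p under 0.05 and none called. The median ran from 0.21 without rapamycin replicate 2 to 0.60 without vehicle replicate 3. The mean log2 CPM of the list was 4.90, 4.70, 5.51 and 4.75 with vehicle and 5.11, 5.80, 4.93 and 5.58 with rapamycin, so the groups overlapped. Kif23, a kinesin of cell division, was at 14.8 to 18.7 CPM with vehicle and at 28.5, 52.2, 17.6 and 47.5 CPM with rapamycin. Top2a, a topoisomerase of dividing cells, was at 41.7 to 86.2 CPM against 60.7 to 173 CPM. Rapamycin replicate 2 was again highest for both. Of 42 S phase genes 22 were lower (median -0.03). Cdkn1a, which encodes the CDK inhibitor p21, was at 190, 251, 127 and 192 CPM with vehicle and 128, 80.1, 149 and 127 CPM with rapamycin (log2 fold change -0.65; adjusted p = 0.497). Rb1, the retinoblastoma protein, was at 8.01 to 19.5 CPM against 12.1 to 35.6 CPM.

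Stem cell genes and the sort markers were mixed. Of 36 genes of stem cell identity 12 were lower and 24 higher (median 0.15), and the median was 0.04 without vehicle replicate 4 and -0.05 without vehicle 3, vehicle 4 and rapamycin 3. Kit, which encodes CD117, was at 399, 235, 127 and 181 CPM with vehicle and 587, 394, 379 and 462 CPM with rapamycin (log2 fold change 0.95; adjusted p = 0.519). Vehicle replicate 1 lay within the rapamycin range. Ly6a, which encodes Sca-1, was at 200, 525, 90.3 and 1006 CPM with vehicle and 204, 191, 158 and 139 CPM with rapamycin, and its vehicle libraries spanned more than the difference. Slamf1, which encodes CD150, was at 60.4, 29.5, 30.7 and 32.8 CPM against 32.7, 19.9, 14.1 and 21.4 CPM. Cd48, a marker that the sort excludes, was at 6.63 to 45.9 CPM with vehicle and 7.25 to 27.8 CPM with rapamycin. Etv6, a factor needed for adult blood stem cells, was at 68.1 to 115 CPM against 121 to 177 CPM without overlap (log2 fold change 0.58; adjusted p = 0.513).

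Of 37 genes known to be raised in aged stem cells 25 were lower with rapamycin, with a median log2 fold change of -0.32, 5 lower and 1 higher with an unadjusted p under 0.05 and none called. Without vehicle replicate 1 the median was -0.11. The list mean was 5.34, 4.73, 4.66 and 4.01 log2 CPM with vehicle and 4.59, 4.39, 4.50 and 4.62 with rapamycin, so all rapamycin libraries lay inside the vehicle range. Selp and Nupr1, described above, and Slamf1 are on the list. Gpr183, a chemotactic receptor, was at 108 CPM in vehicle replicate 4 and 9.85 to 12.7 CPM in the other vehicle libraries, against 6.02 to 19.3 CPM. Exoc6b, a subunit of the exocyst, was the higher member with an unadjusted p under 0.05, at 0.67.

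Cytokine, stress and clock genes were read against the 7.65% of all tested genes with an unadjusted p under 0.05. Of 37 genes of cytokine and STAT feedback 19 were lower (median -0.04), and 5 of the 6 with an unadjusted p under 0.05 were lower. Socs3 led them. Bcl3, an IκB-family co-regulator, was at 64.5, 82.1, 54.5 and 93.9 CPM with vehicle and 32.1, 23.7, 38.5 and 41.2 CPM with rapamycin, without overlap (log2 fold change -1.12; adjusted p = 0.403). Pim2 and Pim1, kinases induced by cytokines, had log2 fold changes of -0.84 and -0.64. Il6st, the gp130 receptor chain, had 0.82. Of 39 immediate early genes 29 were lower, 3 of the 39 with an unadjusted p under 0.05. Their median was -0.18, and it ran from -0.07 without rapamycin replicate 2 to -0.30 without rapamycin replicate 3. Jun, a subunit of AP-1, was at 220, 288, 378 and 269 CPM against 165, 144, 211 and 208 CPM, and Gadd45g, a stress-response gene, at 24.5 to 53.8 CPM against 12.2 to 19.3 CPM. Neither overlapped between groups. Fos, the partner of Jun, had a log2 fold change of -0.22 with overlapping libraries.

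Clock genes were split, 13 of 24 lower, and 3 higher and 2 lower ones had an unadjusted p under 0.05. Besides Bhlhe40, Ciart, a circadian repressor, was at 16.7, 8.58, 9.27 and 19.2 CPM with vehicle and 6.04, 6.77, 4.63 and 4.27 CPM with rapamycin. Nr1d2, the nuclear receptor REV-ERBβ, was at 12.0 to 27.2 CPM against 22.7 to 55.3 CPM. Per1 and Dbp, also on the clock list, had log2 fold changes of -0.09 and 0.75 with unadjusted p of 0.815 and 0.14. The time of day of collection was not used here. Of 24 heat shock genes 18 were lower, 1 with an unadjusted p under 0.05 (median -0.16, and -0.10 without rapamycin replicate 3), and Dnajb1, a co-chaperone, was at 284 to 297 CPM against 160 to 257 CPM. Of 26 genes of endoplasmic reticulum stress 18 were lower (median -0.20, and -0.07 without vehicle replicate 4), among them Herpud1 and Xbp1 at -0.55 and -0.53. An unadjusted p under 0.05 was found for 5 of the lower genes and for no higher one, and none was called. Of 41 interferon response genes 24 were lower, and 4 had an unadjusted p under 0.05 (median -0.07, and 0.04 in the fit on log2(TPM + 1)). Rsad2, an antiviral enzyme, was at 13.2 to 26.6 CPM against 31.6 to 54.8 CPM, and Zbp1, a nucleic acid sensor, at 11.7 to 40.0 CPM against 5.73 to 11.1 CPM. They had opposite signs and neither was called.

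**Figure D4:**
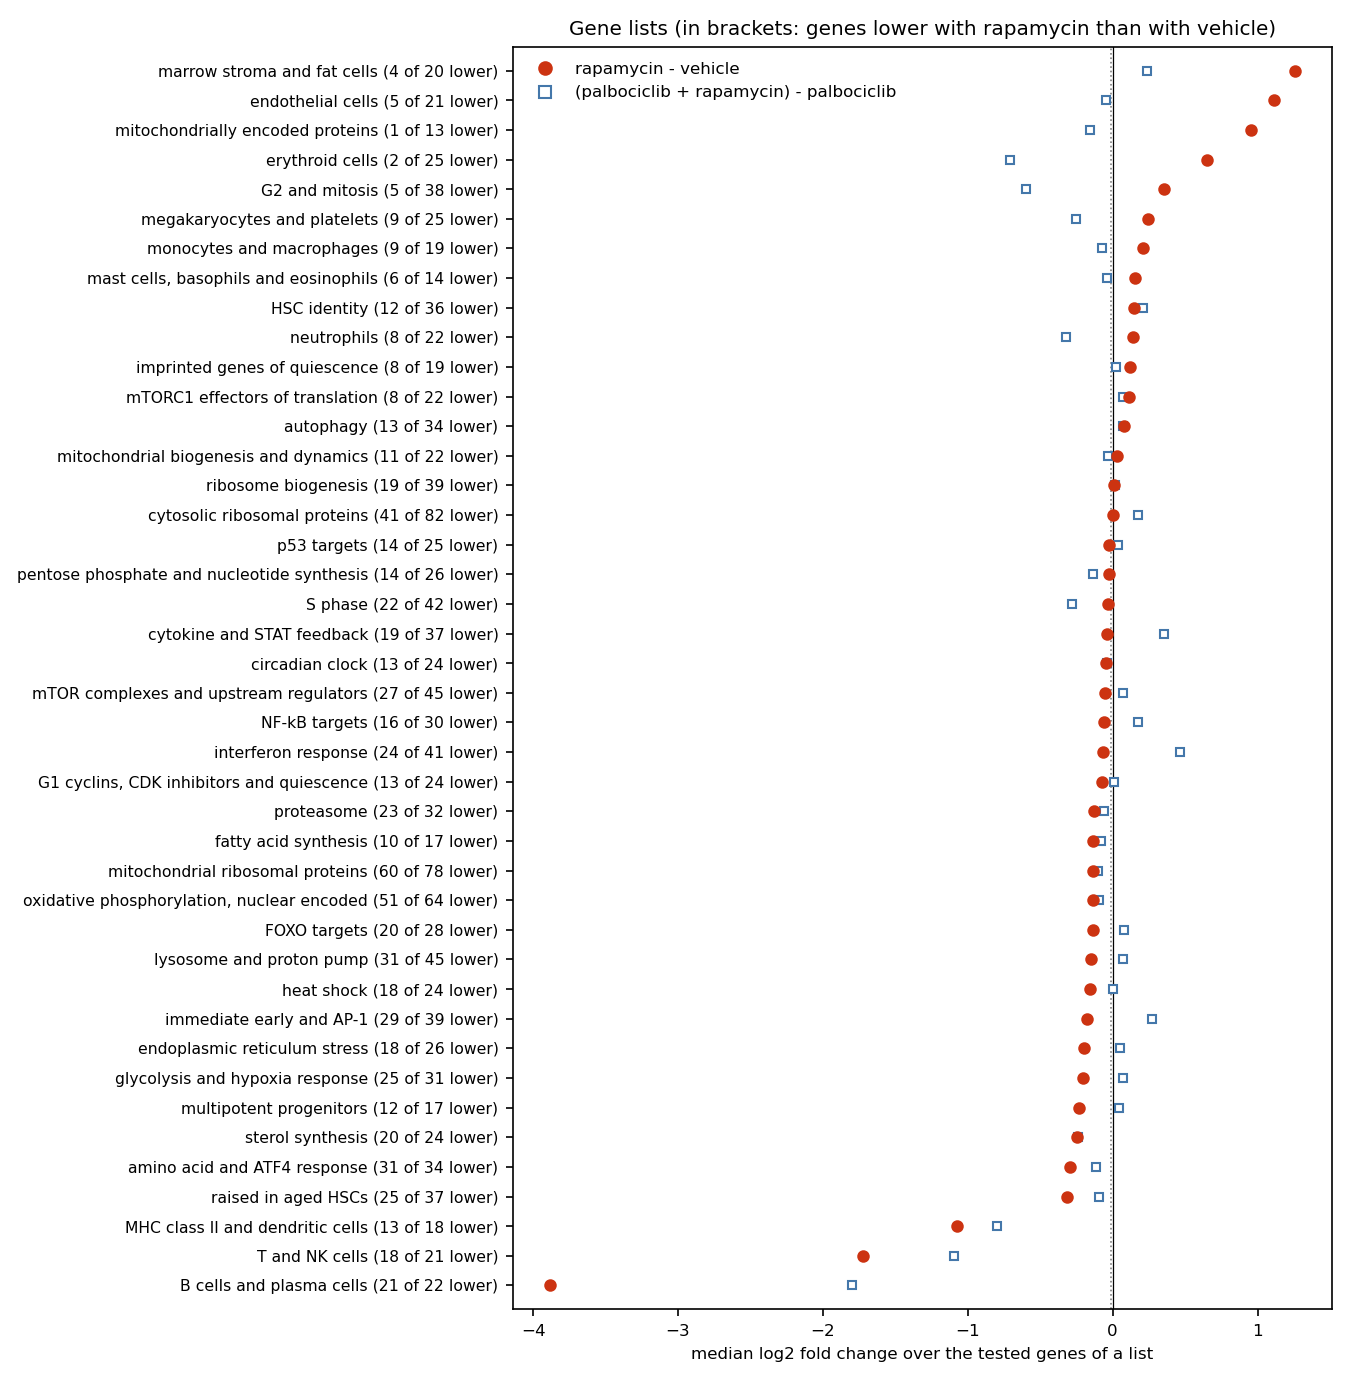
Median log2 fold change over the tested genes of each list, for rapamycin against vehicle (filled circles) and for the combination against palbociclib (open squares), with the dotted line at the median of all tested genes. Most pathway lists lie within 0.4 of 0, and B cell genes lie at -3.88 for rapamycin against vehicle.

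Genes of B cells, T cells and MHC class II had the lowest medians of all lists, and vehicle replicate 4 set much of this. All 92 tested immunoglobulin gene segments were lower with rapamycin, 76 with an unadjusted p under 0.05 and none called, with a median fitted log2 fold change of -6.98. The count filter used all 16 libraries, so segments scarce with rapamycin could pass only through the other groups. Their common direction was therefore in part set by the filter. Only 4 of the 92 had libraries that did not overlap, where 1.5% of all tested genes were lower without overlap. The immunoglobulin share of counts was 0.329%, 0.692%, 1.57% and 7.43% in the vehicle libraries. It was 0.00749%, 0.0856%, 0.199% and 0.0325% in the rapamycin libraries. The 2 groups did not overlap in this summed share. Igkc, the kappa light chain constant region, was at 852, 1562, 5919 and 20810 CPM against 10.8, 233.6, 579 and 79.2 CPM (adjusted p = 0.497).

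Of 22 B and plasma cell genes 21 were lower, 18 with an unadjusted p under 0.05, with a median of -3.88, and this median was -0.56 without vehicle replicate 4. Their share of counts was 0.229% to 5.27% with vehicle and 0.0548% to 0.255% with rapamycin. Genes of MHC class II and dendritic cells had a median of -1.08, which was -0.01 without vehicle replicate 4. H2-Ab1, an MHC class II chain, was at 5312 CPM in that library and at 298 to 526 CPM in the other vehicle libraries, against 221 to 544 CPM with rapamycin. T and NK cell genes had a median of -1.72, which was -0.32 without vehicle replicate 4 and 0.26 without vehicle 3, vehicle 4 and rapamycin 3.

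Stroma, fat and endothelial lists had medians above 0, with no gene called in either. Of 20 tested stroma and fat genes 16 were higher and 4 lower, 5 of them higher with an unadjusted p under 0.05, with a median of 1.26, and the list mean of every rapamycin library (2.73 to 3.93 log2 CPM) lay above that of every vehicle library (1.73 to 2.68). Their share of counts overlapped, at 0.0501% to 0.155% against 0.0599% to 0.164%. Lepr, the leptin receptor of stromal cells, was at 0.26 to 1.76 CPM with vehicle and at 3.69, 28.7, 4.95 and 6.48 CPM with rapamycin. Angpt1, a niche ligand that blood stem cells also express, was at 38.3 to 70.0 CPM against 63.0 to 146 CPM. Cxcl12, a chemokine that holds stem cells in the niche, was at 44.0, 28.0, 147 and 14.8 CPM against 53.8, 278, 289 and 57.4 CPM. Of 21 endothelial genes 16 were higher and 5 lower (median 1.12, and 0.31 without rapamycin replicate 3). Flt4 and Kdr, receptors for vascular growth factors, were at 0 to 0.771 and 0 to 4.50 CPM with vehicle and at 1.93 to 11.5 and 4.77 to 24.5 CPM with rapamycin. Pecam1, also made by blood stem cells, went the other way at -0.68. Car3, the higher gene of smallest p, is on the stroma and fat list, and the part of such cells in its values was not tested.

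Erythroid genes were mostly higher, 23 of 25 with a median of 0.65 and none called, and the median was 0.22 without rapamycin replicate 2. Their share of counts was 0.0895% to 0.365% with vehicle and 0.256% to 0.416% with rapamycin. Platelet genes had a median of 0.24, and -0.01 without rapamycin replicate 3. Alox12, a platelet lipoxygenase, and Tubb1, the platelet tubulin, were at 71.2 and 52.3 CPM in rapamycin replicate 3 and at 0.372 to 4.36 and 1.04 to 2.08 CPM in the other rapamycin libraries. Without that library their log2 fold changes were -0.05 and -0.16, against 3.25 and 3.03 with it. Neutrophil genes overlapped between the groups, with 8 of 22 lower, none at an unadjusted p under 0.05 and a median of 0.14, which was -0.15 without vehicle replicate 1.

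**Figure D5:**
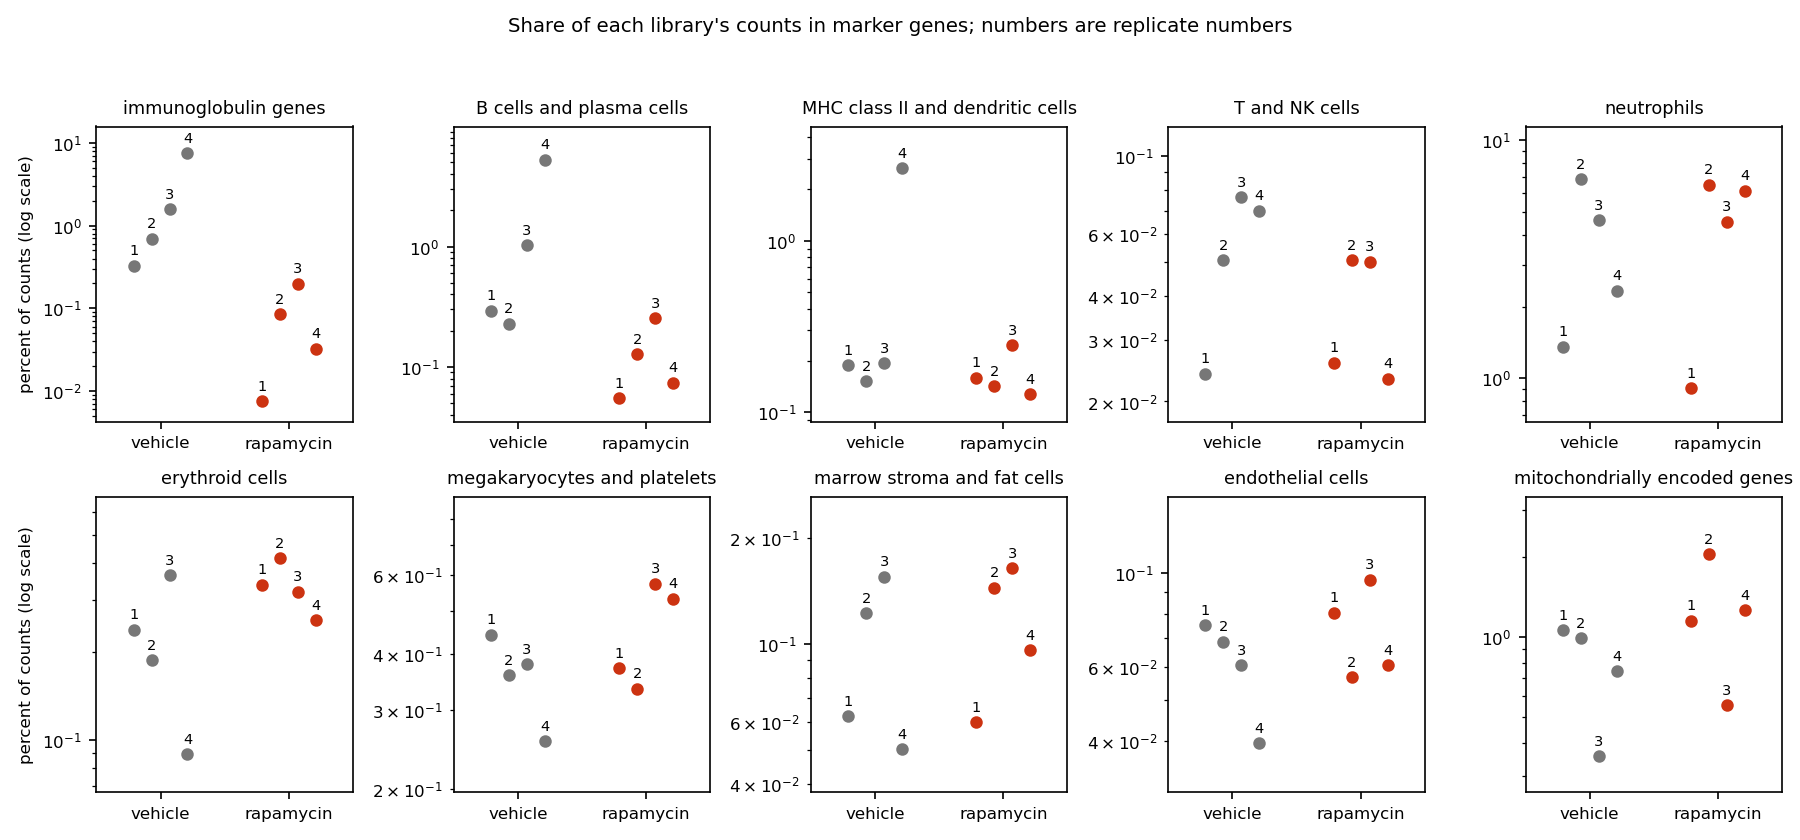
Share of each library's counts in marker genes of other cell types and in mitochondrially encoded genes, on log axes, with replicate numbers beside the points. Vehicle replicate 4 stands at 7.43% for immunoglobulin and 2.65% for MHC class II genes, and rapamycin replicate 2 at 2.05% for mitochondrially encoded genes.

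The effect of rapamycin was set beside its effect in mice that also received palbociclib, using the other 8 libraries, so the 2 contrasts share none. With palbociclib present no gene passed the adjusted threshold for rapamycin (edgeR, lowest adjusted p = 0.485). An unadjusted p under 0.05 was found for 436 genes (2.85%), 255 higher (1.67%) and 181 lower (1.18%), and DESeq2 called 10 higher (0.0653%) and 9 lower (0.0588%). The libraries of the 2 groups were apart for 342 genes higher (2.23%) and 247 lower (1.61%), and 49.0% of all tested genes were higher. Over all tested genes 48.1% had the same sign in both contrasts. Of the 12 lower genes described above, Bhlhe40 among them, 3 had the same sign with palbociclib present, and of the 12 higher genes 6. Across the 11991 genes whose log2 CPM averaged 1 or more, the fold changes of the contrasts had a Pearson correlation of 0.10 and a Spearman correlation of -0.08. Genes are not independent replicates.

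Bhlhe40 was at 43.5 ± 8.4 CPM with palbociclib and 52.2 ± 3.7 CPM with the combination (SD, n = 4 each), a log2 fold change of 0.26. The test of the difference between the 2 rapamycin effects gave -2.28 ± 0.34 (SE; edgeR adjusted p = 0.05103), just outside the threshold. Selp was at 112 ± 21 and 216 ± 24 CPM in these groups, and the difference of its effects was -2.25 (adjusted p = 0.05103). Gpr4, a proton-sensing receptor chosen after its values were seen, had the same adjusted p with a difference of -2.92. It was at 63.4, 79.3, 26.6 and 51.1 CPM with vehicle and 28.3, 18.9, 15.7 and 21.5 CPM with rapamycin, and its log2 fold change with palbociclib present was 1.54. Socs3 had a difference of -1.96 (adjusted p = 0.086). No gene passed edgeR's threshold in this test. The unadjusted p was under 0.05 for 867 genes (5.66%), of which 365 had a higher (2.38%) and 502 a lower difference (3.28%), where 49.3% of all differences were higher. In DESeq2 8 differences were called higher (0.0523%) and 26 lower (0.17%).

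Some other settings placed these genes past the threshold. Bhlhe40, Selp and Gpr4 were called in the test of the difference with RLE factors, with TMMwsp factors, without a count filter, with a stricter count filter and with robust dispersion estimates. Without a count filter the segment Igkv6-23 was called too. Over all alternatives the adjusted p of Bhlhe40 in this test ran from 1.81e-06 (DESeq2) to 0.191 (limma on log2(TPM + 1)). Among lists, all 38 G2 and mitosis genes were lower with palbociclib present (median -0.60), whereas 33 were higher with rapamycin alone. Interferon genes were higher in 39 of 41 cases with palbociclib present (median 0.46) and in 17 of 41 with rapamycin alone. These differences between lists were not tested.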

How the data were processed

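RNA-seq of sorted mouse blood stem cells was analysed in 16 libraries, 4 per treatment. The authors deposited a table of expected counts per gene, already whole numbers, and a table of log2(TPM + 1) values. STAR 2.5.3a, RSEM 1.3.0, SAMtools 1.3 and mm10 are named in the submitters' processing notes, with no role given there. Whether counting used strand is not given in the sources used here, so overlapping and antisense genes cannot be told apart. Names and positions came from GENCODE on GRCm38 (50462 of 50686 identifiers matched), and promoters from RefSeq GRCm38.p6.

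Genes passed filterByExpr (minimum count 10, total 15) in edgeR 4.0.16 (R 4.3.3). A quasi-likelihood F test was fitted over all 16 libraries with a mean per group (12 residual degrees of freedom) and TMM factors, so the palbociclib groups share in the spread. P-values were adjusted by Benjamini-Hochberg over 15308 genes, with a threshold of 0.05. The common biological coefficient of variation was 55.8%. Means of gene lists used log2 CPM with a prior count of 2. DESeq2 1.42.0, limma 3.58.1 and other settings were alternatives. In data simulated for rapamycin against vehicle (15000 genes, 50 changed per fold), the test recovered 6%, 22%, 74% and 74% of genes changed 1.5-, 2-, 4- and 8-fold, with 3 false calls. The changed genes were drawn from those with a mean of at least 2 CPM, so the rates do not cover scarcer genes. Apart from these changes all simulated libraries shared the same means, so no library was made to stand apart.

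The genes named were those called, the 12 per direction of smallest p among protein-coding genes with a mean log2 CPM from 1 up and separate libraries, fixed mTOR and sort marker genes, the 3 members of smallest p per list, and the defining marker of highest CPM. Other members of a list are named after their values were seen. The members and lists were chosen with earlier results of these data known. A few list members are not reported here.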

Additional observations from a re-analysis of the deposited data

Results flagged for a closer look

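In groups of 4 libraries, 1 library was set apart where its gap to the next, divided by the group's range, exceeded Dixon's 95% critical value. Of 196 groups examined 20 met this, and chance flags about 1 in 20. Vehicle replicate 4 accounted for 8. It was high for Ppp3cc (86.5 CPM against 10.3 to 21.1 in the other vehicle libraries, ratio 0.858), for Mzb1 (239 CPM against 3.44 to 19.5, ratio 0.932) and for Tfeb (39.1 CPM against 15.3 to 16.2, ratio 0.962). It was also high for the share of counts in B and plasma cell genes (5.27%, ratio 0.841), in MHC class II and dendritic cell genes (2.65%, ratio 0.984) and for the mean of FOXO targets (5.71 log2 CPM, ratio 0.888). It was low for Fkbp1a (371 CPM, ratio 0.922) and for the mean of platelet genes (4.53 log2 CPM, ratio 0.86).

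Vehicle replicate 3 was low for the share of cytosolic ribosomal proteins (2.59%, ratio 0.87) and for the means of fatty acid synthesis (3.75 log2 CPM, ratio 0.851), mitochondrially encoded proteins (5.58, ratio 0.884) and G1 cyclins and CDK inhibitors (5.40, ratio 0.83). Vehicle replicate 1 was high for Slamf1 (60.4 CPM, ratio 0.893). Among rapamycin libraries, replicate 2 was high for Armc9 (26.3 CPM, ratio 0.953), Sept7 (101 CPM, ratio 0.836) and the share of haemoglobin genes (0.132%, ratio 0.877). Rapamycin replicate 3 was low for Mtor (11.1 CPM against 25.6 to 26.3, ratio 0.957) and high for Eif4ebp1 (187 CPM, ratio 0.832). Rapamycin replicate 1 was high for Ift80 (20.3 CPM, ratio 0.859) and low for the mean of NF-κB targets (4.60 log2 CPM, ratio 0.873). The differences between the rapamycin effects with and without palbociclib did not pass their test and are given with the results above.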

How the results depend on the processing

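The count of called genes for rapamycin against vehicle was 86 with DESeq2, and 0 with limma on log2(TPM + 1) and with the 8 compared libraries alone. It ran from 0 (without rapamycin replicate 2) to 2 when single libraries were left out. The added gene was Car3 without palbociclib replicate 1 and Glce without rapamycin replicate 4. With palbociclib present the count was 19 with DESeq2 and 0 in every other setting run. For the difference of the 2 effects it was 34 with DESeq2, 3 each with RLE factors, TMMwsp factors, the strict filter and robust estimates, 4 with no filter, and 3 without vehicle 3, vehicle 4 and rapamycin 3, a setting added after seeing the data. It ran from 0 to 5 with single libraries left out. Replicate numbers recur across groups, but rapamycin and vehicle libraries of a number had deviations that correlated at 0.248, 0.0135, 0.186 and 0.111. As 1 of the 4 was not over 0.1 and no label ties the numbers to an animal or a day, the libraries were not treated as pairs. As a hint from the data, 3 of 4 rapamycin libraries correlated best with their own vehicle number. With the replicate block the counts were 1, 0 and 0, and Bhlhe40 had an adjusted p of 0.044. Bhlhe40 was called in 25 of 28 alternatives, the exceptions being limma on log2(TPM + 1) (0.0502), the 8 libraries alone (0.322) and without rapamycin replicate 2 (0.0729).

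Of 4175 values of 151 named genes under alternatives, 26 were reversed in sign, 26 gained a call and 3 lost one. None of the 28 values of Bhlhe40 was reversed. Uncalled genes changed sign as follows. With single libraries left out, log2 fold changes ran from -0.074 to 0.38 for Mtor, -0.29 to 0.46 for Rictor, -0.039 to 0.32 for Mlst8, -0.071 to 0.18 for Myc, -0.56 to 0.41 for Cd48, -4.72 to 1.44 for Ccr7, -2.17 to 0.60 for Ly86, -0.045 to 3.66 for Alox12 and -0.16 to 3.59 for Tubb1. Without vehicle 3, vehicle 4 and rapamycin 3 they were -0.018 for Rictor, -0.21 for Mlst8, 1.34 for Ccr7, 0.58 for Tcf7, 0.35 for Ly86, -0.049 for Alox12, -0.39 for Tubb1 and 0.15 for Fcer1a. limma-voom gave 0.093 for Cd48 and -0.021 for Siglecf, and limma on log2(TPM + 1) gave 0.12 for Cd48. List medians moved by less than their spread between libraries in 1170 of 1193 values. The causes were not tested. Depth limits scarce genes: below 1 CPM no 95% interval lay within 2-fold.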

Other observations

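Most of the further gene groups were close to the background of all tested genes, of which 51.0% were lower. The FOXO targets were more often lower than that. Of 25 p53 target genes 14 were lower, with a median log2 fold change of -0.02, and of 30 NF-κB targets 16 were lower, with -0.06. Within the latter, the cytokine Il1b was at 12.8, 13.5, 10.1 and 3.19 CPM with vehicle and 2.35, 45.4, 28.5 and 30.7 CPM with rapamycin. Of 28 FOXO targets 20 were lower, with a median of -0.14, and the median was 0.03 without vehicle replicate 4. Ccr7, a homing receptor on that list, was at 382 CPM in vehicle replicate 4 and at 0.778 to 5.94 CPM in the other vehicle libraries. Of 26 genes of the pentose phosphate pathway and nucleotide synthesis 14 were lower (median -0.02). Dhodh, an enzyme of pyrimidine synthesis, was at 38.0 to 60.3 CPM with vehicle and 25.1 to 39.3 CPM with rapamycin. Of 22 genes of mitochondrial biogenesis and dynamics 11 were lower (median 0.03), none with an unadjusted p under 0.05.

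Imprinted genes of stem cell quiescence were low and variable. Of 19 tested 8 were lower (median 0.12). Dlk1, a Notch-family ligand, was at 4.22, 32.3, 2.72 and 32.3 CPM with vehicle and 8.46, 1.49, 0.399 and 1.58 CPM with rapamycin, a log2 fold change of -2.56 (adjusted p = 0.601). With palbociclib present its log2 fold change was 2.35. Of 17 genes of multipotent progenitors 12 were lower (median -0.23, and 0.11 without vehicle replicate 4), of 19 monocyte and macrophage genes 9 (median 0.21), and of 14 mast cell, basophil and eosinophil genes 6 (median 0.16). Of the 20 genes on that last list 5 were at 0 in all 8 libraries. Glce, an enzyme of heparan sulfate synthesis chosen after its values were seen, was at 1.38, 1.91, 6.48 and 2.09 CPM with vehicle and 19.9, 24.5, 37.6 and 2.92 CPM with rapamycin. Its log2 fold change was 2.82 (adjusted p = 0.351), and rapamycin replicate 4 alone lay in the vehicle range.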
